A study of Mus musculus with 6 samples.

Results

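The cytosolic ribosomal protein genes were followed across the immune cells of mouse liver. Members were taken by symbol: Rpl or Rps followed by digits and at most one letter, plus Rplp0, Rplp1, Rplp2 and Rpsa. The rule took 80 of the 32286 measured genes, 49 for proteins of the large (60S) subunit and 31 for proteins of the small (40S) subunit. It left out Rps3a1, Fau and Rpl36al, among other genes that also encode cytosolic ribosomal proteins, and the pseudogene features and the Rps27 copy Rps27rt, which together had between 0.0214% and 0.0397% as many unique molecular identifiers (UMIs, 1 per captured transcript) as the members.

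The cytosolic ribosome is built from ribosomal RNA and one copy of most ribosomal proteins, with a small subunit that decodes the messenger RNA and a large subunit that forms the peptide bond. Most of its messenger RNAs begin with a C followed by a run of C and T, the 5′ terminal oligopyrimidine (TOP) motif, through which mTORC1 and the RNA-binding protein LARP1 control their translation and stability. In lymphocytes these transcripts are abundant even in resting cells, whereas ribosome production declines as neutrophils mature.

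The study profiled single cells from liver at day 30 after infection with 10x 3′ libraries and antibody tags, 1 messenger RNA library per group, each from a pool of 3 tumor samples. The mock library came from mock-infected mice and is titled native liver, while the series text counts its livers among the tumor-bearing ones; which of these holds is not settled by the labels. The AAV-sgSCR library came from mice given an adeno-associated virus with the control guide sgSCR. The AAV-sgBaat library came from mice given the virus with a guide against Baat, which encodes the hepatocyte enzyme for bile acid conjugation with amino acids. In every group, T cells (CD45hi CD3+) and the remaining CD45hi cells were sorted and run together, so the shares of cell classes follow the sort. With 1 library per group no difference between groups could be tested, and every interval below is a 95% exact interval that covers counting error only.

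Depth and library composition differed. Barcodes that passed the filters numbered 6068 in mock, 7332 in AAV-sgSCR and 7094 in AAV-sgBaat, with a median of 4164, 5911 and 3811.5 gene UMIs. Mixed barcodes had T cell markers beside those of another lineage, or B cell markers beside those of monocytes, macrophages or neutrophils. They made up 6.62%, 18.2% and 29.3% of the passing barcodes and were left out of the classes below together with predicted doublets. Between 10 and 16 passing barcodes were shared by any pair of libraries. Cells were grouped with every ribosomal protein gene left out of the clustering and of its totals, so the members did not define the classes, which were named from marker genes. A cluster of 983 AAV-sgBaat barcodes with Dntt and Arpp21 but few UMIs kept no class name. The Dntt/Arpp21 T cell-like class carries genes of immature lymphocytes and came mostly from the AAV-sgBaat library (639 cells, against 90 in AAV-sgSCR).

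The start regions of 5 members that the results below turn on are shown first, because ribosomal protein genes are known for their shared start sequence. RefSeq promoters of build GRCm38.p6 (mm10) were listed for 61 of the 80 members. Each line runs 5′ to 3′ from 40 bases before to 30 bases from the annotated start, with the longest run of C and T in capitals, the first where runs tie. Rps27 and Rps27l encode near-identical 40S proteins, Rpl31 and Rpl12 encode 60S proteins, and Rps9 encodes a 40S protein. The windows lie at chr3:90213619-90213688 on the minus strand (Rps27), and on the plus strand at chr9:66946046-66946115 (Rps27l, the first of its listed starts), chr1:39367811-39367880 (Rpl31), chr2:32961672-32961741 (Rpl12) and chr7:3704001-3704070 (Rps9).
Rps27: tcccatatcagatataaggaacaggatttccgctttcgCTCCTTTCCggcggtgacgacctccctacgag
Rps27l: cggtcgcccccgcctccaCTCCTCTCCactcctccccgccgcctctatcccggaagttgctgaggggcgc
Rpl31: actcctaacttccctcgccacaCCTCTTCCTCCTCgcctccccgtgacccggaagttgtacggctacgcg
Rpl12: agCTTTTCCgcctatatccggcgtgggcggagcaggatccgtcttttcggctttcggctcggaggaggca
Rps9: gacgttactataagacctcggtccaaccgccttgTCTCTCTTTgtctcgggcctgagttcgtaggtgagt

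The runs were 9 bases long in Rps27, Rps27l and Rps9, 13 in Rpl31 and 7 in Rpl12. Rps27l and Rpl12 each hold a later run of the same length, left in lower case, and that of Rpl12 lies just after the annotated start. A run of at least 8 bases lay in this 70-base window for 39 of 61 members (63.9%), against 29.9% of all 27025 genes with a promoter entry. The Ets-type motif CCGGAAG stood on either strand of the 300-base promoter (250 bases before to 50 after the start) in 25 of 61 members (41.0%) and in 9.93% of all genes; Rps27l and Rpl31 carried it, Rps27, Rpl12 and Rps9 did not. The motif AAGATGG, the core of the YY1 site, was present in 9 members (14.8%) and in 7.28% of all genes, and among the 5 it was found in Rps27. The TATAAA box was no more frequent in members (7, 11.5%) than in all genes (15.7%). These are matches of letters, not measured binding sites.

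Ribosomal protein transcripts were among the most abundant in these cells. Over all passing barcodes the members took 27.9% of gene UMIs in mock, 25.3% in AAV-sgSCR and 28.1% in AAV-sgBaat. Of the 80 members, 75 exceeded 1000 CPM over the 3 libraries (CPM is a gene's count over all gene UMIs, so that 1000 CPM is 0.1% of them), and 67 were among the 100 most abundant genes. In 3′ libraries each transcript gives 1 UMI whatever its length, so CPM can be compared between genes as transcript shares, apart from differences in how well each 3′ end is captured.

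The 40S protein gene Rps24 stood highest, with 9317 CPM in mock, 6748 in AAV-sgSCR and 6719 in AAV-sgBaat. Rpl13, of the large subunit, followed with 6890, 6964 and 7989 CPM in the same order. Rps29 and Rpl23 were also among the 5 most abundant, at 5935 and 5445 CPM over the libraries together. At the other end stood paralogs known for restricted expression. Rpl10l, a testis gene, had 0 UMIs in every library, Rpl39l had 1.25, 1.65 and 0.389 CPM, and Rpl3l, known from muscle, had 0.224, 1.80 and 1.25 CPM. Rps27l stood far above them at 139, 273 and 445 CPM, and Rpl31 was the lowest of the main genes at 933, 781 and 1176 CPM. The main genes of the pairs were all high: Rpl3 had 2394, 2935 and 2987 CPM, Rpl39 had 3940, 3120 and 3333 CPM, and Rps27 had 5865, 2968 and 2741 CPM. Rps27 was lower and Rps27l higher in both AAV libraries than in mock, before cell classes are taken into account.

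The rare paralogs were counted in different cells. Rpl3l had 41 UMIs in AAV-sgSCR neutrophil-like cells (7.08 CPM) and 13 in AAV-sgBaat (5.28 CPM), and 16 and 7 in classical monocyte-like cells. Rpl39l was counted mainly in mature T cell-like cells, with 21 UMIs in mock, 46 in AAV-sgSCR and 4 in AAV-sgBaat, and in NK and ILC1-like cells, with 10 in mock and 8 in AAV-sgSCR. At such counts a few cells decide a level.

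**Figure D1:**
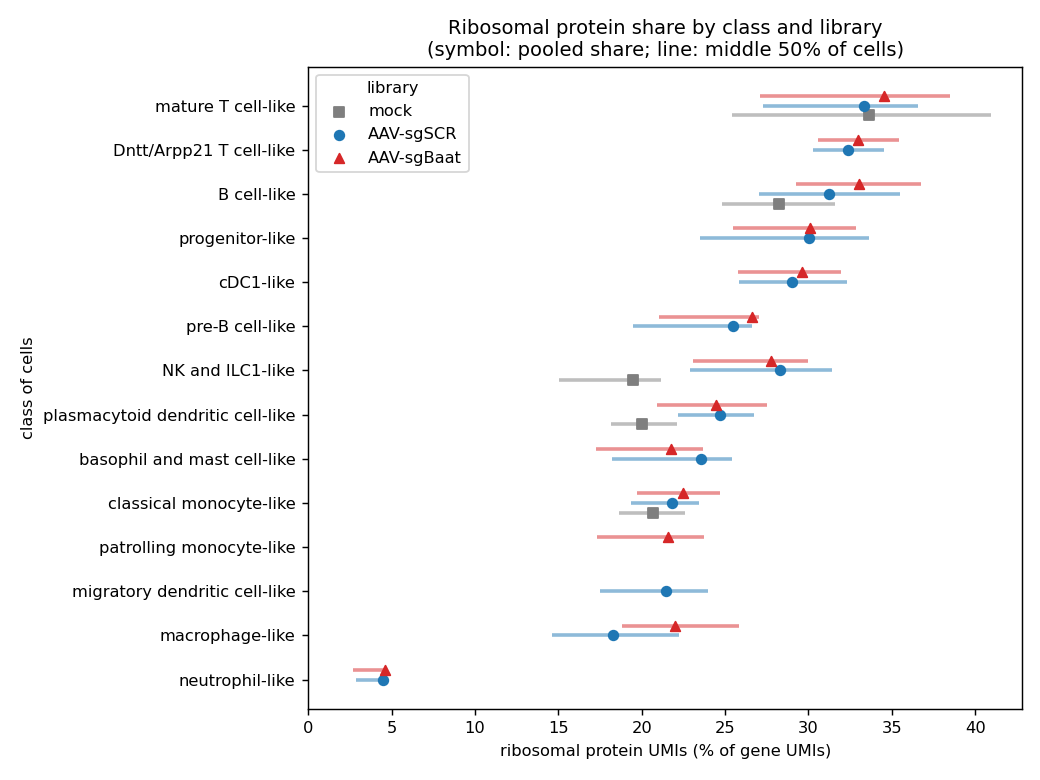
Ribosomal protein UMIs as a percentage of gene UMIs (x axis) in each class of cells with at least 50 cells (y axis), by library; symbols give the share pooled over cells and lines the middle 50% of cells. By the pooled share, mature T cell-like cells lie highest, between 33.3% and 34.5%, and neutrophil-like cells lowest, at 4.48% and 4.58%. The mock library lies far below both AAV libraries in NK and ILC1-like cells.

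The level of the whole family differed more between cell classes than between libraries. Mature T cell-like cells devoted 33.6% of gene UMIs to the members in mock (interval 33.6% to 33.7%), 33.3% in AAV-sgSCR and 34.5% in AAV-sgBaat, and their range over libraries did not overlap that of the next class. The Dntt/Arpp21 class followed with 32.4% in the control guide library and 32.9% in the Baat guide library. B cell-like cells ranged from 28.3% in mock to 33.1% in AAV-sgBaat, which overlaps the Dntt/Arpp21 class. This order is that of the pooled shares, and the median cell gave another in the AAV libraries. By it, mature T cell-like cells had 31.7% in AAV-sgSCR and 31.9% in AAV-sgBaat, below the Dntt/Arpp21 class at 32.5% and 32.9%. The median B cell-like cell had 31.6% and 32.6%, the latter also above mature T cell-like cells. The pooled shares of further classes were lower. Progenitor-like cells had 30.0% and 30.1% in the AAV libraries, and cDC1-like cells had 28.99% and 29.6%.

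A middle group of classes has only a partial order, because the range of NK and ILC1-like cells over libraries overlapped each of the others. It held pre-B cell-like cells (25.5% and 26.6%), NK and ILC1-like cells (19.5% to 28.3%), plasmacytoid dendritic cell-like cells (20.04% to 24.7%), basophil and mast cell-like cells (21.7% and 23.6%) and classical monocyte-like cells (20.7% to 22.5%). By the pooled share, pre-B cell-like cells lay above the plasmacytoid dendritic, basophil and mast and classical monocyte-like cells, whose ranges overlapped each other. The median cell did not keep this order. It had 22.6% in AAV-sgSCR and 23.9% in AAV-sgBaat in pre-B cell-like cells, below 23.8% and 24.2% in plasmacytoid dendritic cell-like cells. In basophil and mast cell-like cells it had 22.9% and 20.5%. The remaining values are again pooled shares. Macrophage-like cells had 18.3% in AAV-sgSCR and 21.99% in AAV-sgBaat. Neutrophil-like cells were apart from all others at 4.48% and 4.58%, with a median of 163 and 142.5 ribosomal protein UMIs per cell beside 4696.5 and 4219 UMIs of other genes. The balance of the subunits hardly varied: 40S genes took between 44.2% and 48.2% of the members' UMIs in every named class and library shown, and the highest value was in AAV-sgSCR neutrophil-like cells.

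Within the mature T cell-like class, clusters differed by more than the libraries did. Cluster 6, led by Dapl1 and with Cd8b1 and the interleukin 7 receptor gene Il7r among its leading genes, had 41.0% in mock, 44.7% in AAV-sgSCR and 45.4% in AAV-sgBaat. Cluster 7, led by Gzmk and Ccl5, a granzyme and a chemokine of effector and memory cells, with Cd8b1 also among its leading genes, had 24.5%, 33.4% and 34.1%. Cluster 6 was thus higher in all 3 libraries, and the gap was widest in mock. The members' median log2 ratio of cluster 6 over cluster 7 was 0.71 in mock, 0.41 in AAV-sgSCR and 0.40 in AAV-sgBaat, while the median over all genes was -0.33, -0.31 and -0.26. At least 1.5-fold higher were 59 of 77 measured members in mock (10.4% of all genes), 5 of 77 in AAV-sgSCR (4.95% of all genes) and 5 of 77 in AAV-sgBaat (6.09% of all genes). Rps27l ran the other way in each library, with -1.04 in mock, -0.09 in AAV-sgSCR and -0.15 in AAV-sgBaat.

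Another pair of T cell clusters had a gap of similar size. Cluster 16, led by Ly6c1 and Igfbp4 and with Dapl1 and Cd4 among its leading genes, had 39.0%, 42.5% and 47.2% in mock, AAV-sgSCR and AAV-sgBaat. Cluster 4, with Cd40lg, Il4 and Icos, genes of T cell help, among its leading genes, had 26.5%, 30.6% and 30.3%. Zbtb16 and Rora were among its leading genes too, and it was named no further than mature T cell-like. Rps20, a 40S protein gene, had the largest ratio of cluster 16 over cluster 4 in every library, at 1.08 in mock and 1.05 in AAV-sgSCR on the log2 scale. Cluster 21, with Pdcd1 and Tox, markers of chronic stimulation, among its leading genes, held 890 cells in AAV-sgSCR, 203 in AAV-sgBaat and 6 in mock, and had 30.9% in AAV-sgSCR and 29.6% in AAV-sgBaat. Among CD8 T cells grouped by their surface tag, those with mainly CD90.1 tags had 30.9% and 29.4% in AAV-sgSCR and AAV-sgBaat, and those with mainly CD90.2 tags had 36.8% in mock, 37.4% in AAV-sgSCR and 39.0% in AAV-sgBaat. The median CD90.2 cell gave another order of the libraries, with 39.1% in mock, 35.2% in AAV-sgSCR and 37.3% in AAV-sgBaat.

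Neutrophil-like clusters differed widely in share. Cluster 24, led by Fcnb and Camp, granule genes of immature neutrophils, had 8.12% in AAV-sgSCR and 7.70% in AAV-sgBaat. Its cells varied widely: the median cell had 5.34% and 6.94%, and the middle 50% of cells ran from 4.31% to 12.7% in AAV-sgSCR and from 4.02% to 12.5% in AAV-sgBaat. Cluster 23, with Ltf and Mmp8 among its leading genes, granule genes of a later stage, had 3.59% and 3.54%. Cluster 19, with Il1b and Cxcr2 among its leading genes, genes of mature cells, had 4.02% and 4.51%. In cluster 24 over cluster 23, 73 of 78 measured members were at least 1.5-fold higher in AAV-sgSCR (32.7% of all genes) and 73 of 77 in AAV-sgBaat (31.4% of all genes), with medians of 1.26 and 1.18 on the log2 scale against 0.11 and 0.10 over all genes. Rpl3, whose protein lies at the catalytic centre of the large subunit, had the largest ratio, 2.35 and 2.24. Rps9 had the smallest in AAV-sgBaat, 0.12, and Rpl3l the smallest in AAV-sgSCR, -1.31.

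Against mock, NK and ILC1-like cells of both AAV libraries had a far larger share of ribosomal protein transcripts. Their share was 19.5% in mock (interval 19.4% to 19.5%), 28.3% in AAV-sgSCR (28.2% to 28.4%) and 27.8% in AAV-sgBaat (27.7% to 27.9%), from 760, 376 and 316 cells. The median cell held 755 ribosomal protein UMIs in mock, 1234 in AAV-sgSCR and 830.5 in AAV-sgBaat, beside 3483.5, 3183 and 2262.5 UMIs of other genes. The AAV libraries were thus both above mock and close to each other, and the middle 50% of cells did not overlap between mock (15.04% to 21.2%) and either AAV library (22.9% to 31.4% and 23.1% to 30.0%).

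Every member measured in NK and ILC1-like cells had a ratio above 1 in both AAV libraries, though the intervals of the smallest ratios include 0 on the log2 scale; Rpl10l, Rpl3l and Rpl39l had under 20 UMIs over the libraries compared and were not measured. All 77 measured members had a ratio above 1 for AAV-sgSCR over mock, where 35.5% of all genes did, and 33 were at least 1.5-fold higher (7.96% of all genes). For AAV-sgBaat over mock all 77 were above 1 (33.1% of all genes), and 30 were at least 1.5-fold higher (6.85% of all genes). The medians were 0.56 and 0.52 on the log2 scale, against -0.19 and -0.23 over all genes. Both comparisons use the same mock library, so they are not independent of each other.

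Single members differed in size of this step, as the plot of single-member ratios shows. Rplp0, the base of the stalk that recruits elongation factors, had 2026 CPM in mock, 3751 in AAV-sgSCR and 3441 in AAV-sgBaat, log2 ratios over mock of 0.89 (0.84 to 0.94) and 0.76 (0.71 to 0.82). Rpsa, a 40S protein also known as a laminin receptor, had 2921, 5395 and 4798 CPM, and Rpl10a, of the large subunit, had 1381, 2407 and 2412 CPM with ratios of 0.80 and 0.80. Rps6, the S6 kinase substrate, had 1311, 2032 and 1954 CPM. Smaller steps were seen for Rplp1, a stalk protein (4431, 5650 and 5571 CPM), Rpl38 (3172, 3771 and 4019 CPM), Rpl22 (1509, 1907 and 1906 CPM) and Rps25, needed for internal initiation on some viral RNAs (1370, 1640 and 1639 CPM). Rps27 was almost level at 3839, 3929 and 3967 CPM, with ratios of 0.03 (-0.01 to 0.08) and 0.05 (0.00 to 0.10), whose intervals include 0.

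**Figure D2:**
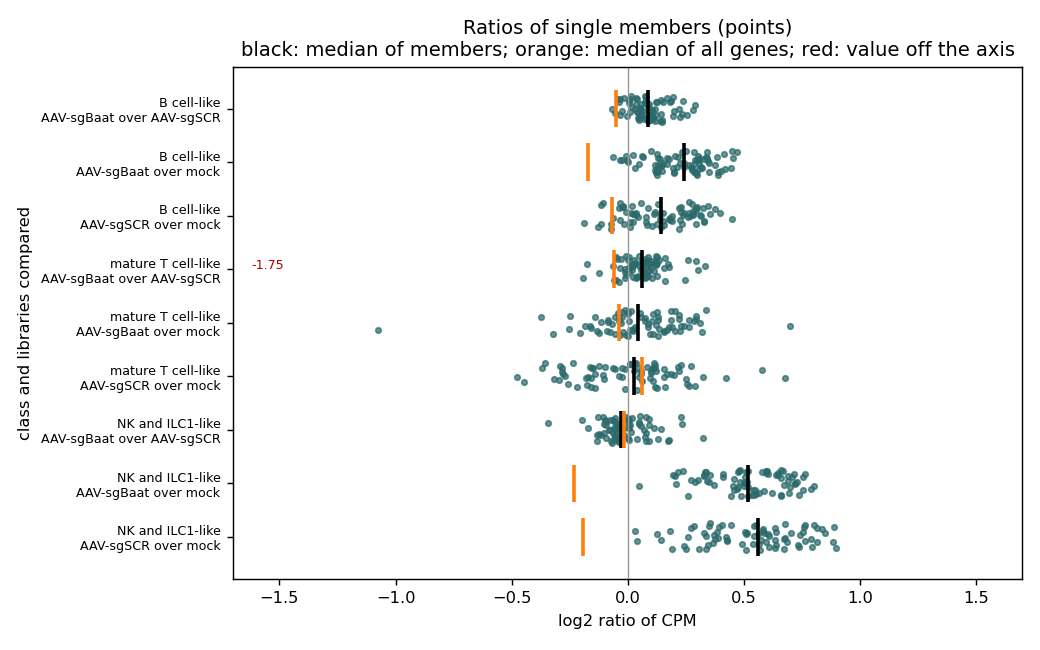
Log2 ratio of CPM between libraries (x axis) for each measured member (points) in 3 classes of cells and 3 pairs of libraries (y axis); the black bar is the median of the members, the orange bar the median of all genes, and a red number a value off the axis, that of Rpl39l. In NK and ILC1-like cells the members lie to the right of 0 in both comparisons with mock, with medians of 0.56 and 0.52, and around 0 between the AAV libraries.

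Other gene lists were compared in the same cells, where 35.5% of all genes had a ratio above 1 for AAV-sgSCR over mock and 33.1% for AAV-sgBaat over mock. TOP-class translation factors, elongation and initiation factor genes whose transcripts also carry TOP motifs, were higher for 17 of 20 measured in both AAV libraries, with median log2 ratios of 0.47 in AAV-sgSCR and 0.35 in AAV-sgBaat. Naca, a ribosome-bound chaperone subunit, had ratios of 0.73 and 0.73 and Eef1b2, an elongation factor subunit, 0.69 and 0.70. All 7 ribosomal protein genes outside the rule or close to it were higher in both, among them Rps3a1 at 0.63 and 0.53. Mitochondrial ribosomal protein genes were higher for 65 of 78 and 63 of 77, with medians of 0.22 and 0.32. Ribosome biogenesis genes were higher for 22 of 40 and 26 of 40, with medians of 0.12 and 0.15. Of 18 genes that control TOP translation, 15 and 14 were lower, with medians of -0.32 and -0.32 against -0.19 and -0.23 over all genes; Mtor itself had 17.7 CPM in mock, 8.59 in AAV-sgSCR and 5.78 in AAV-sgBaat, levels that rest on few UMIs, while the mTORC1 inhibitor Ddit4 had 12.7, 31.5 and 34.7 CPM.

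Neutrophil and macrophage markers were higher in both AAV libraries than in mock, in these cells and in others. In NK and ILC1-like cells the 7 neutrophil marker genes summed to 38.0 CPM in mock, 439 in AAV-sgSCR and 195 in AAV-sgBaat, with 1, 0 and 2 of the 7 at 0. The 8 macrophage markers summed to 7.96, 93.4 and 48.2 CPM, with 4, 2 and 4 at 0. The neutrophil markers also rose in mature T cell-like cells (42.7, 415 and 231 CPM in mock, AAV-sgSCR and AAV-sgBaat) and in B cell-like cells (6.90, 540 and 169 CPM). The part of these markers in the NK and ILC1-like result was not tested. Mixed barcodes were defined without NK markers, so barcodes that joined NK markers with these were not removed on that ground. The mitochondrial share of UMIs in NK and ILC1-like cells was 3.07%, 4.21% and 2.54%, so it was above mock in one AAV library and below it in the other. Library and treatment cannot be told apart.

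**Figure D3:**
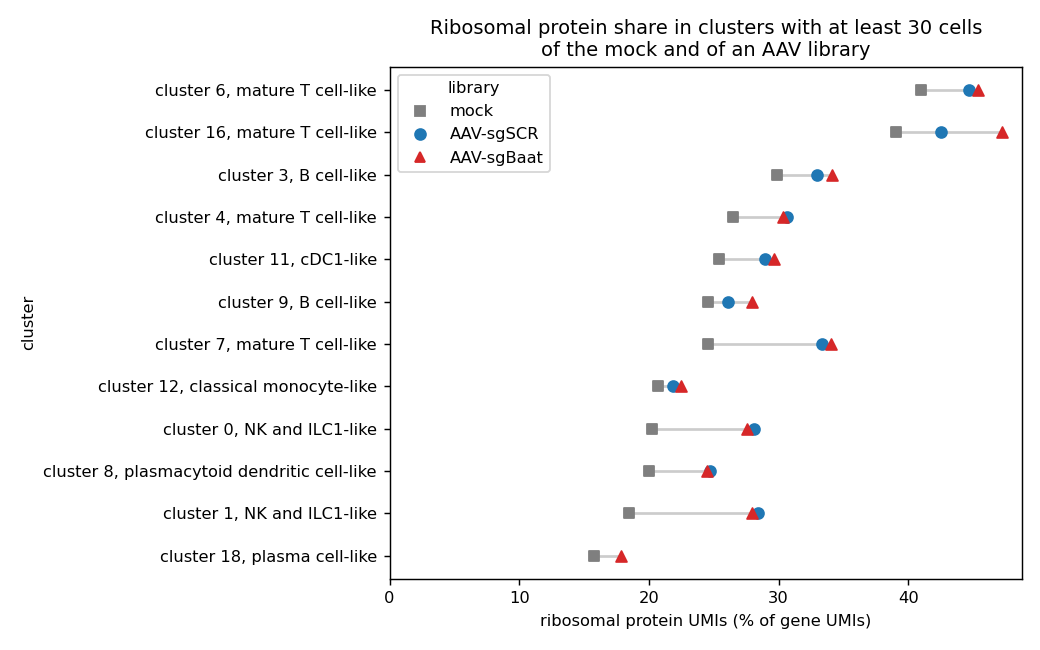
Ribosomal protein UMIs as a percentage of gene UMIs (x axis) in each cluster with at least 30 cells of the mock library and of an AAV library (y axis), by library. In each cluster shown the mock value is the lowest plotted, and the gap is widest in clusters 1 and 7.

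Shares above mock were found in each cluster with at least 30 cells in both libraries, at very different sizes. AAV-sgSCR exceeded mock in 11 of 11 such clusters, by 1.14 to 9.91 percentage points, and AAV-sgBaat in 12 of 12, by 1.82 to 9.54 points. NK cluster 1, with Gzmc and Xcl1 among its leading genes, had 18.5%, 28.4% and 27.95% in mock, AAV-sgSCR and AAV-sgBaat, and NK cluster 0, led by Klra genes, had 20.3%, 28.1% and 27.5%. Cluster 7 had 24.5%, 33.4% and 34.1%. In it 75 of 77 measured members were above mock in AAV-sgSCR (38.1% of all genes) and 13 at least 1.5-fold (10.3% of all genes). In AAV-sgBaat 76 of 77 were above mock (34.8% of all genes) and 19 at least 1.5-fold (8.84% of all genes). Rps19, a 40S protein gene, had 3048 CPM in mock, 5137 in AAV-sgSCR and 5121 in AAV-sgBaat in this cluster, and Rpl12, at the base of the stalk, had 3659, 5959 and 5878 CPM. Classical monocyte-like cells were at the small end, with 20.7%, 21.8% and 22.5%.

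In the mature T cell-like class as a whole the differences from mock were smaller and of either sign. The pooled share differed from mock by -0.33 points in AAV-sgSCR and 0.87 points in AAV-sgBaat, and the median cell by -2.03 and -1.81 points. Of 78 measured members, 43 were above mock in AAV-sgSCR (54.4% of all genes), with a median of 0.03 against 0.06 over all genes. Clusters 16 and 6, which have the highest shares, held 485 and 386 of the 1551 mock cells, 73 and 247 of the 2301 AAV-sgSCR cells and 41 and 147 of the 899 AAV-sgBaat cells. Rps27, Rps29 and Rps21, all small 40S protein genes, were the lowest in AAV-sgSCR over mock, at -0.48, -0.45 and -0.37. Within clusters Rps27 was at -0.33 in cluster 6, -0.06 in cluster 4 and 0.18 in cluster 7. In the whole class Rpl3 was among the highest, with 2970 CPM in mock, 3979 in AAV-sgSCR and 3483 in AAV-sgBaat. Of the mitochondrial ribosomal protein genes, which serve another ribosome, 73 of 78 were higher in AAV-sgSCR (54.4% of all genes) and 73 of 78 in AAV-sgBaat (47% of all genes), with medians of 0.40 and 0.47.

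B cell-like and plasmacytoid dendritic cell-like cells had intermediate differences. In B cell-like cells 61 of 77 measured members were above mock in AAV-sgSCR (44.6% of all genes), with a median of 0.14. Different clusters held the B cell-like cells: cluster 2, with a share of 27.5%, held 1168 of the 2876 mock cells, 6 of the AAV-sgSCR cells and 2 of the AAV-sgBaat cells. In cluster 3, present in all libraries, the share was 29.9%, 32.9% and 34.1%. Rplp0 had 2573 CPM in mock, 3513 in AAV-sgSCR and 3503 in AAV-sgBaat, and Rps27 had 7125, 6520 and 6972 CPM. In plasmacytoid dendritic cell-like cells 74 of 77 were above mock in AAV-sgSCR (45.3% of all genes), with a median of 0.31. Rplp0 (2652, 4613 and 3966 CPM) and Rpsa (2448, 4105 and 3605 CPM) again showed the larger steps, and Rps27 (3414, 3105 and 3380 CPM) none upward. For AAV-sgSCR over mock in pooled classes, Rps27 was the lowest measured member in mature T cell-like, NK and ILC1-like and plasmacytoid dendritic cell-like cells. It was second lowest in B cell-like cells. Rplp0 was the highest in B cell-like and plasmacytoid dendritic cell-like cells, and second highest in NK and ILC1-like cells.

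The guide against Baat went with differences of either sign from the control guide. Over all passing barcodes the share was 25.3% in AAV-sgSCR and 28.1% in AAV-sgBaat, a difference of 2.76 percentage points. With doublets and mixed barcodes removed the difference was 2.03 points. The cells left in 12 classes were then given the same make-up in both libraries, a choice made after the data had been seen. The difference was 0.63 points on the make-up of AAV-sgSCR and 0.62 on that of AAV-sgBaat. These values rest on fewer barcodes than the 2.76 points, so the step between them is not one of make-up alone. By cluster, the difference was above 0 in 14 of 25 clusters and below in 11, with a median of 0.39 points and a range from -3.13 to 4.70. By class, mature T cell-like cells differed by 1.196 points, B cell-like cells by 1.81, classical monocyte-like cells by 0.68, neutrophil-like cells by 0.10 and NK and ILC1-like cells by -0.53. The ends of the range over classes were macrophage-like cells (3.73 points, 54 and 141 cells) and basophil and mast cell-like cells (-1.83 points, 56 and 82 cells).

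Single members were counted by class. In mature T cell-like cells 61 of 78 measured members were above 1 for AAV-sgBaat over AAV-sgSCR (42.9% of all genes), with a median of 0.06. The counts were 68 of 77 in B cell-like cells (45.2% of all genes), 53 of 78 in classical monocyte-like cells (45.2% of all genes), 57 of 78 in neutrophil-like cells (33.1% of all genes) and 28 of 77 in NK and ILC1-like cells (47.8% of all genes). No measured member differed by 1.5-fold in these 5 classes other than Rpl39l in mature T cell-like cells, with 46 UMIs in AAV-sgSCR and 4 in AAV-sgBaat, a log2 ratio of -1.75. Within the mature T cell-like class the direction differed by cluster. Above 1 were 18 of 77 members in cluster 21 (49.0% of all genes) and 35 of 77 in cluster 4 (50.9% of all genes). In clusters 6 and 7 they were 55 of 77 (50.9% of all genes) and 56 of 77 (46.7% of all genes). Cluster 21 held 890 of the 2301 AAV-sgSCR cells and 203 of the 899 AAV-sgBaat cells.

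The same genes recurred at the ends of the order. Rps2, a 40S protein at the messenger RNA entrance, had 2950 CPM in AAV-sgSCR and 2322 in AAV-sgBaat in NK and ILC1-like cells (-0.34), 2214 and 1922 in classical monocyte-like cells (-0.20), and 3517 and 3118 in mature T cell-like cells (-0.17). Rpl3 was second lowest in NK and ILC1-like (-0.20), classical monocyte-like (-0.14) and B cell-like cells (-0.06). Rpl23a, at the exit of the peptide tunnel, was high in mature T cell-like (1609 and 1983 CPM, 0.30), NK and ILC1-like (1395 and 1746 CPM, 0.32), classical monocyte-like (0.27) and B cell-like cells (0.26). Rpl31, its neighbour at the tunnel exit, was high in the first 3 of these classes (0.29, 0.23 and 0.27), and Rps15 likewise (0.33, 0.23 and 0.25). Neutrophil-like cells had other genes at the ends, with Rps9 at -0.26 and Rps27a at -0.17 among the lowest and Rpl36a at 0.38 and Rpl12 at 0.31 the highest.

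When the Dntt/Arpp21 T cell-like cells were counted as T cells, 3 of 78 members were at least 1.5-fold higher in AAV-sgBaat (21.3% of all genes), among them Rps27l at 1.32 and Rpl31 at 0.70 on the log2 scale. Rpl39l alone of 78 was at least 1.5-fold lower (26% of all genes). Without the Dntt/Arpp21 cells the count of higher members was 0. Ribosome biogenesis genes were higher in AAV-sgBaat for 34 of 40 in mature T cell-like cells (42.9% of all genes), with a median of 0.25 against -0.06 over all genes; Mrto4, which shapes the stalk base of the nascent large subunit, had 38.7 CPM in AAV-sgSCR and 67.8 in AAV-sgBaat.

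**Figure D4:**
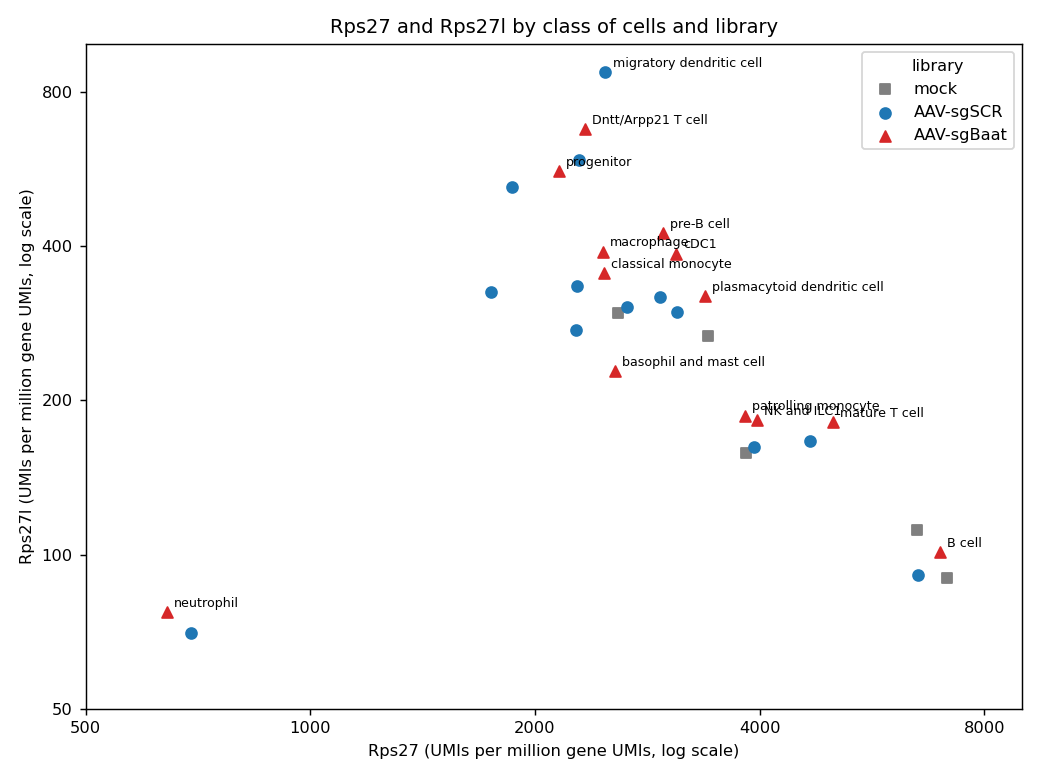
Level of Rps27 (x axis) against Rps27l (y axis), both in CPM on log axes, for each class of cells with at least 50 cells, by library. B cell-like cells have the most Rps27 and little Rps27l, Dntt/Arpp21 T cell-like, progenitor-like and migratory dendritic cell-like cells the most Rps27l, and neutrophil-like cells are low in both.

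The balance of the paralogs Rps27 and Rps27l differed between classes. Rps27l, known as a p53 target in addition to its ribosomal role, took 1.25% of the pair's UMIs in mock B cell-like cells (interval 1.17% to 1.33%), 1.38% in AAV-sgSCR and 1.43% in AAV-sgBaat. In NK and ILC1-like cells it took 3.95%, 3.96% and 4.41%. In mature T cell-like cells it took 1.69% in mock, 3.44% in AAV-sgSCR and 3.48% in AAV-sgBaat. The 3 libraries lay close together in B and NK cells, and mock lay apart in the pooled mature T cell-like class. The clusters of this class made up different parts of it in each library, and they differed in direction. In mock, AAV-sgSCR and AAV-sgBaat, cluster 6 had 0.9996%, 1.84% and 1.71%, and cluster 4 had 2.75%, 2.68% and 3.2%. Mock was highest in cluster 7 and below AAV-sgSCR in cluster 16, as given below. The part of cluster make-up in the pooled difference was not tested.

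The pair had another balance in several other classes. In the Dntt/Arpp21 class Rps27l took 20.5% of the pair in AAV-sgSCR (2289 CPM of Rps27 and 588 of Rps27l) and 22.5% in AAV-sgBaat (2333 and 677 CPM). Progenitor-like cells had 21.9% and 20.7%, and migratory dendritic cell-like cells, measured in AAV-sgSCR, had 26.1% with 876 CPM of Rps27l. In T cells cluster 16 had 0.697% in mock and 1.03% in AAV-sgSCR, cluster 7 had 3.48%, 2.38% and 2.40% in mock, AAV-sgSCR and AAV-sgBaat, and cluster 25, led by the cell division genes Nusap1 and Aspm, had 12.4% in AAV-sgSCR. Among pre-B cell-like cells, cluster 29, led by Vpreb1 and Igll1 of the pre-B cell receptor, had 14.6% and 16.3% in the AAV libraries, and cluster 28 had 3.91% and 4.42%. In cluster 25 over cluster 7, Rps27l had the highest and Rps27 the lowest ratio of the 77 measured members in all 3 libraries.

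Rps27 also differed on its own. It took 2.52%, 2.09% and 2.11% of the members' UMIs in B cell-like cells of mock, AAV-sgSCR and AAV-sgBaat, and 1.25% and 1.04% in classical monocyte-like cells of mock and AAV-sgSCR. Across the 26 class and library points, its level correlated with the summed level of the other members at r = 0.79, Rps27l at 0.39 and Rpl31 at 0.70; the points of one class share cell type, and those of one library share depth, so these are descriptions. Rpl3l had -0.56.

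Plasmacytoid dendritic cell-like cells stood apart by Rpl31 and, by smaller margins, by Rpl10 and Rps4x. Rpl31 had 2649 CPM there in mock, 2795 in AAV-sgSCR and 2877 in AAV-sgBaat, and took 1.32%, 1.13% and 1.17% of the members' UMIs. In the other classes it took between 0.282% and 0.369% in mock, 0.237% and 0.456% in AAV-sgSCR and 0.251% and 0.505% in AAV-sgBaat. The share was thus between 2.33 and 3.58 times the highest of any other class of the same library. Rpl10, the X-linked gene for a 60S protein that joins last, took 1.62%, 1.41% and 1.52% there, above the highest other class in each library (1.28%, 1.24% and 1.23%). The difference for Rpl31 held in all 3 libraries, while that for Rpl10 was small.

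**Figure D5:**
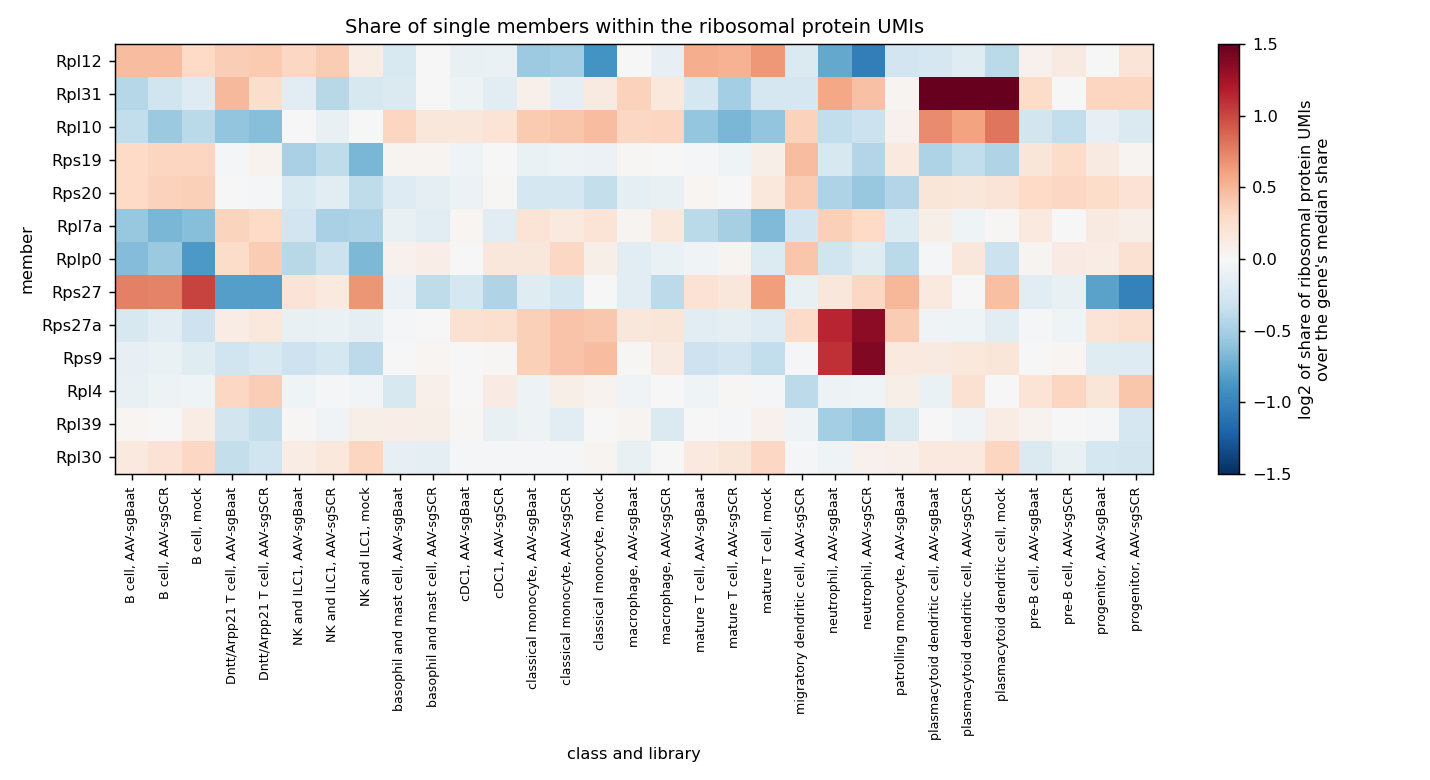
Share of single members within the ribosomal protein UMIs, as log2 over the gene's median share (colour), for each class with at least 50 cells in each library (x axis); rows are the 6 members with the widest span between classes, then Rplp0, Rps27, Rps27a and Rps9, then the 3 members ranked lowest by their smallest span (y axis). Rpl31 is highest in plasmacytoid dendritic cell-like cells, Rps27a and Rps9 in neutrophil-like cells, and Rpl12 in mature T cell-like cells.

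For 76 members with at least 50 UMIs throughout, the span of the share between classes was taken in each library and members were ranked by the smallest of the 3 spans. The median span was 1.25-fold in mock, 1.56-fold in AAV-sgSCR and 1.546-fold in AAV-sgBaat. Mock had 4 classes of at least 100 cells, without neutrophils, AAV-sgSCR 10 and AAV-sgBaat 12, and mock gave the smallest span for 64 of the 76 members. Among the 8 widest were Rpl12 (2.07-fold), Rpl31 (2.01), Rpl10 (1.99), Rps19 (1.72), Rps20 (1.67), Rpl7a (1.61) and Rplp0 (1.58). The values of Rpl31 and Rpl10 are those of AAV-sgBaat, where plasmacytoid dendritic cell-like cells numbered 80 and were left out. In mock and AAV-sgSCR, which include that class, Rpl31 spanned 4.68-fold and 4.78-fold and Rpl10 2.63-fold and 2.44-fold. The lowest ranks were those of Rpl4 (1.05-fold), Rpl39 (1.04) and Rpl30 (1.01), values of the mock classes. In AAV-sgSCR and AAV-sgBaat, Rpl4 spanned 1.75-fold and 1.34-fold, Rpl39 1.51-fold and 1.47-fold, and Rpl30 1.40-fold and 1.42-fold. Some members with a small span in mock had a wide one in the AAV libraries, such as Rps27a with 1.12-fold in mock, 2.85-fold in AAV-sgSCR and 2.60-fold in AAV-sgBaat.

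Rpl12 was a lymphocyte-weighted member. It took 1.84%, 1.69% and 1.71% of the members' UMIs in mature T cell-like cells of mock, AAV-sgSCR and AAV-sgBaat, against 0.632%, 0.820% and 0.809% in classical monocyte-like cells. Neutrophil-like cells had 0.574% and 0.694% in the AAV libraries. Rplp0 was distributed otherwise, with 0.911%, 1.12% and 1.06% in B cell-like cells and 1.76%, 2.05% and 1.86% in classical monocyte-like cells. Of the other members followed throughout, Rplp1 took 2.54%, 2.06% and 2.08% in mature T cell-like cells and 1.44%, 1.39% and 1.43% in classical monocyte-like cells. Rps6 took 0.744%, 0.756% and 0.704% in the first and 0.685%, 0.828% and 0.746% in the second, and over all classes of at least 100 cells it spanned 1.21-fold in mock, 1.69-fold in AAV-sgSCR and 1.59-fold in AAV-sgBaat.

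In neutrophil-like cells Rps9 and Rps27a took larger shares of the family than in monocytes, an observation made after their values were seen. Rps9 took 4.88% of the members' UMIs in AAV-sgSCR and 3.98% in AAV-sgBaat, against 2.50% and 2.39% in classical monocyte-like cells. Rps27a, which encodes ubiquitin fused to a 40S protein, took 4.40% and 3.83%, against 2.35% and 2.23%. Their levels still were lower than in monocytes, at 2185 and 1824 CPM against 5468 and 5377 for Rps9, and 1972 and 1755 CPM against 5126 and 5016 for Rps27a. Rpl10a showed the reverse, with 0.490% and 0.514% in neutrophil-like cells against 0.930% and 0.910%, and Rpl22 had 0.428% and 0.476% against 0.678% and 0.705%.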

How the data were processed

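The 3 deposited messenger RNA matrices hold counts of UMIs per gene and barcode; per the file headers the authors used Cell Ranger 6.0.1, and per the submitters' processing notes build mm10. Tags were read from the same matrices; the 3 tag samples listed separately were not analysed here. Barcodes with at least 500 genes, 1000 gene UMIs and at most 10% mitochondrial UMIs were kept. Doublets were the highest Scrublet scores, at 0.8% per 1000 barcodes, and were removed. Barcodes with T cell markers beside those of another lineage, or B cell markers beside those of monocytes, macrophages or neutrophils, were also removed. NK markers and other mixtures were not part of this rule. Clustering used Python 3.11.15, scipy 1.17.1, scanpy 1.11.5 and leidenalg 0.10.2 at resolution 1 without ribosomal protein genes; clusters were named from marker lists.

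Shares pooled the UMIs of all cells of a class and library, with Clopper-Pearson 95% intervals. Ratios of CPM carry exact conditional 95% intervals and need at least 20 UMIs over both libraries and, between libraries, 100 cells in each for classes and for cluster 7; ratios between clusters of 1 library were taken from 20 cells on, the smallest being 26 cells of cluster 25 in mock; called means at least 1.5-fold. The interval and ratio functions were tested on simulated data. UMIs remove PCR copies, but the intervals leave out variation between animals and preparations, so no p-value was computed. The members, marker lists and gene lists were chosen with earlier results of these data known. Named genes are the 5 highest and 5 lowest members, paralog pairs, the 3 highest and lowest ratios per class, the 8 widest and 3 narrowest spans, fixed members (Rplp0, Rplp1, Rps6, Rpl10a, Rps25, Rpl38, Rpl22, Rps27, Rpsa) and up to 4 genes per list. Cluster leaders and Rps9 and Rps27a in neutrophils were added after their values were seen. Some members that these rules take are not reported here.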

Additional observations from a re-analysis of the deposited data

Results flagged for a closer look

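The ribosomal share moved in opposite directions in different classes under the same comparison; none of these differences between classes was tested, since each rests on 1 library per group. For AAV-sgSCR minus mock the share was -0.33 percentage points in mature T cell-like cells and 8.84 in NK and ILC1-like cells. The mature T cell-like value is that of the pooled class, whose clusters held different parts of it in mock and AAV-sgSCR. Its clusters with at least 30 cells in both, 4, 6, 7 and 16, were each above mock, by 4.19, 3.65, 8.86 and 3.49 points. For AAV-sgBaat minus AAV-sgSCR the share difference was -0.53 points in NK and ILC1-like cells. It was 3.73 points in macrophage-like, 1.81 in B cell-like, 1.196 in mature T cell-like, 1.14 in pre-B cell-like, 0.68 in classical monocyte-like, 0.65 in cDC1-like, 0.57 in Dntt/Arpp21 T cell-like, 0.10 in neutrophil-like and 0.0267 in progenitor-like cells. Basophil and mast cell-like cells (-1.83) and plasmacytoid dendritic cell-like cells (-0.22) lay on the side of the NK and ILC1-like cells. By the median cell the sign turned in cDC1-like (-0.26), progenitor-like (-0.98) and neutrophil-like cells (-0.0794) and in plasmacytoid dendritic cell-like cells (0.36); with cells thinned to 1000 UMIs it turned in cDC1-like (-0.32) and plasmacytoid dendritic cell-like cells (0.0538). The macrophage-like value rests on 54 AAV-sgSCR cells and 141 AAV-sgBaat cells.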

How the results depend on the processing

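No paired analysis was possible because each group has 1 library. Alternatives for NK and ILC1-like cells, the counting of cluster 17 as T cells and the removal of shared barcodes were chosen after seeing the data.

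Differences between AAV-sgBaat and AAV-sgSCR depended on the setting. Over all barcodes 2.76 points became 2.73 without the barcode filter, 2.03 with doublets and mixed barcodes removed, 1.93 thinned to 1000 UMIs, 2.60 without mitochondrial transcripts, 1.68 as a median over cells, 2.78 with 4 genes added to the members and 1.82 without Dntt/Arpp21 cells. For T cell-like cells with the Dntt/Arpp21 cells, 0.23 points became 1.49, 1.82 (doublets and mixed barcodes kept), 0.85, -0.26, 0.81, 0.13 and 1.196 in that order, 0.11 at resolution 2, -0.0360 with marker panels and -0.47 with cluster 17 counted. For B cell-like cells 1.81 became 1.24 without the filter, 2.14 with doublets kept, 1.41 thinned, 1.09 without mitochondrial transcripts and 0.99 as a median. For neutrophil-like cells 0.10 became 5.84 without the filter, 0.21 with doublets kept, 0.39 thinned, -0.0794 as a median, 0.23 at resolution 2, 0.23 with another clustering seed and -0.24 with marker panels. For classical monocyte-like cells 0.68 became -0.0572 without the filter, 0.21 with doublets kept, 0.36 without mitochondrial transcripts, 0.85 as a median, 0.0923 at resolution 2, 0.52 with another seed and -0.0593 with marker panels. The causes were not tested.

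Differences from mock in NK and ILC1-like cells stayed between 7.78 and 9.99 points under the 9 alternatives run for each. For AAV-sgSCR, 8.84 points became 8.74 without the filter, 8.68 with doublets kept, 8.41 thinned, 9.47 without mitochondrial transcripts, 9.99 as a median and 9.18 with 4 genes added. For AAV-sgBaat, 8.32 became 8.01, 7.78, 8.20, 8.42, 9.21 and 8.65. The count of 4 T cell-like members past 1.5-fold became 2 at 2-fold and 1 without Dntt/Arpp21 cells, and was 3 to 5 under the other 6 alternatives. Leaving out barcodes shared between libraries moved no share difference beyond its counting interval. Libraries are single, so the spread between animals is unknown, and thinly filled classes, Rpl3l and Rpl39l are limited by their counts.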
